A study of Mus musculus with 8 samples.

Results

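The regions described here were accessible at every timepoint and gained height, relative to other accessible regions, within 18 h of retinoic acid (RA). They were chosen by their readout. Overlapping peaks (1 bp or more) from the 8 ATAC-seq libraries gave 87144 merged regions, and 15536 of these, called shared regions, had a peak in every library. The height of a region in a library was the log2 of the highest summit value there, minus the median of that library over the shared regions, and is called the centred height. Early-rising regions were those whose mean centred height was higher by 1 or more (2-fold on the linear scale) at 18 h than at 0 h. This selected 266 of the 15536 shared regions (1.71%). The 18 h and 0 h values that chose them are given as a description, without a test.

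Germ cells were sorted for eGFP, which the *Piwil2* promoter drives in all germ cells, from PIWIL2-eGFP transgenic mice, and each of the 2 libraries of a timepoint came from the testes of 1 mouse. All mice, including those at 0 h, were fed WIN 18,446, which blocks RA synthesis, daily for 7 days from 2 days postpartum (dpp). The 0 h mice received no RA, and the mice of the 18 h, 48 h and 120 h groups were injected with RA at 9 dpp and collected after that time, so later groups were also older. The sample labels give a C57BL/6 and 129s4/SvJae background, whereas the methods of the study give C57BL/6 and SJL. Height in a bulk library cannot tell fewer cells with an open region from less openness per cell.

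ATAC-seq reads open chromatin through a transposase that cuts DNA where it is not covered by nucleosomes, so that tags pile up at promoters, enhancers and other exposed sites. RA enters the nucleus and acts through RAR and RXR receptors, which sit on pairs of a short motif (AGGTCA and its variants) and switch target genes on or off. In the testis a pulse of RA drives undifferentiated A spermatogonia into differentiating A1 spermatogonia, which begin to make STRA8 and the receptor KIT.

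The gene starts of *Stra8* and *Kit* were both among the early-rising regions, and their upstream sequences are shown because these genes are well known markers of the response to RA. *Stra8* encodes a factor needed for entry into meiosis, and *Kit* encodes the receptor for stem cell factor on differentiating spermatogonia. The sequences are the 250 bases before the gene start on the plus strand, from RefSeq on GRCm38 (mm10), the build of the deposited peaks. They lie at chr6:34920698-34920947 for *Stra8*, with nuclear receptor motifs AGGTCA in capitals, and at chr5:75574737-75574986 for *Kit*, with the GC box GGGCGG in capitals.
Stra8: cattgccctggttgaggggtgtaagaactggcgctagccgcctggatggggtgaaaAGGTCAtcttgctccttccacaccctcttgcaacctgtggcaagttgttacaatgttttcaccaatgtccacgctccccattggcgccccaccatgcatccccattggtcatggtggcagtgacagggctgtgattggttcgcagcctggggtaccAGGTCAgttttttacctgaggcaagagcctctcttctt
Kit: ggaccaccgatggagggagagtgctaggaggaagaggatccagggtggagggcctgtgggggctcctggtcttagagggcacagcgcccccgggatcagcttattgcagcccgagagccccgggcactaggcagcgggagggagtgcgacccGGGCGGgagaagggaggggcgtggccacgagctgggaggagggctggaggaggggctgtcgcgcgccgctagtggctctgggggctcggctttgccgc
The *Stra8* stretch held 2 AGGTCA motifs, which lay far apart and not as an adjacent pair. The *Kit* stretch held 1 GC box and no AGGTCA in either orientation. The median summit of the *Stra8* region lay 115 bases before the gene start, inside the printed stretch, and that of the *Kit* region 26 bases before it. Among all shared regions, 12.1% had AGGTCA in either orientation within the 300 bases centred on the summit, and 53.6% had the GC box.

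Sequence and peak shape divided the early-rising regions into 3 kinds, and the limits between them were set after the values had been seen. In 48 regions the peaks of at least 6 of the 8 libraries began and ended at exactly the same base, which are called fixed-edge regions. In another 51 regions at least 20% of the 12-base words of the region recurred within it, or at least 50% of its 32-base words occurred more than once in GRCm38. These are called repeated-sequence regions, and a second copy of a 32-base word could lie inside the region itself. The remaining 167 regions had neither property and are called the remaining early-rising regions. Over all shared regions only 62 had fixed edges and 389 repeated sequence, so early-rising regions made up 77.4% of the former and 13.1% of the latter, against 1.71% of all shared regions.

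The middle of a fixed-edge region is shown because it is where the exact edges point. The authors extended each tag to 200 bp, and the stretch in capitals is the one between 200 bp from the right edge and 200 bp from the left edge. The 5 regions with the largest change and the same edges in all 8 libraries are given on the plus strand of GRCm38, with 40 bases on each side.
chr16:89293935-89294033: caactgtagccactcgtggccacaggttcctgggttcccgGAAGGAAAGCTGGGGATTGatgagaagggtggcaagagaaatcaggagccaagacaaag
chr17:69282184-69282282 (2410021H03Rik): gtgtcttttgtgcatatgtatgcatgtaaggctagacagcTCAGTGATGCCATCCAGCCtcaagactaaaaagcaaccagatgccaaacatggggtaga
chr3:158964365-158964465: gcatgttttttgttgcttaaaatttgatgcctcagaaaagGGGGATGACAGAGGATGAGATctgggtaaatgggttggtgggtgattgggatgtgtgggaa
chr11:37815474-37815572: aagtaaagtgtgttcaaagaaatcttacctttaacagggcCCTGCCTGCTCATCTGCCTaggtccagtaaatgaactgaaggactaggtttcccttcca
chr16:37735092-37735190: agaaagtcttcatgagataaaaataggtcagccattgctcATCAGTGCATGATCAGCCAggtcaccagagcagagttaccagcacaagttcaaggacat
The stretches were 19 bases long in 4 of these regions and 21 in the other.

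Repeated-sequence regions are illustrated by the 3 with recurring 12-base words whose change was largest, with 120 bases around the summit on the plus strand of GRCm38 and bases of recurring 12-base words in capitals. The third lies in an intron of *Dlgap2*, a gene for a scaffold protein of synapses.
chr15:74187461-74187580: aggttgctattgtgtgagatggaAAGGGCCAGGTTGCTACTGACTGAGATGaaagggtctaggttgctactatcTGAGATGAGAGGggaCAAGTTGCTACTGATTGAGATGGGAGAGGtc
chr4:20191845-20191964: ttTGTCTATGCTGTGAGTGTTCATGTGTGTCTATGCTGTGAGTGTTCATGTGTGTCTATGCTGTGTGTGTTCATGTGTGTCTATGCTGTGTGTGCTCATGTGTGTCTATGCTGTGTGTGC
chr8:14306853-14306972 (Dlgap2): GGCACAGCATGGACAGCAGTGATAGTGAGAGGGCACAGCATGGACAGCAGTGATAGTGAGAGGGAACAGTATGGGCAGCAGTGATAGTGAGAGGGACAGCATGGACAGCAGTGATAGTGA
Of the 120 bases, 69, 118 and 120 belonged to recurring words.

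Early-rising regions were low at 0 h, and their level at 18 h differed by kind. Median centred heights in the 18 h libraries were 0.84 and 0.64 (fixed-edge), 0.67 and 0.21 (repeated-sequence) and -0.15 and -0.59 (remaining). The tag number was made equal between libraries by the authors, so heights can also be read without centring. The median height of all shared regions was 224 and 270 in the 0 h libraries and fell to 91 and 116 (18 h), 86 and 102 (48 h), and 166 and 106 (120 h). The median height of the early-rising regions was 86.5 and 79.0 (0 h), 95.5 and 94.0 (18 h), 77.0 and 117.5 (48 h), and 158 and 95 (120 h). Without centring, the median change from 0 h to 18 h was 0.05 on the log2 scale in the early-rising regions and -1.23 over all shared regions. Only 25 of the 266 rose by 1 or more without centring, and 118 were at or below their 0 h height. At 0 h, 254 of the 266 lay below the library median and 208 (78.2%) lay among the lowest 10% of the shared regions. The heights of the early-rising regions ran from 29 to 1030 over all libraries, while the lowest height of any shared region was 26.

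**Figure D1:**
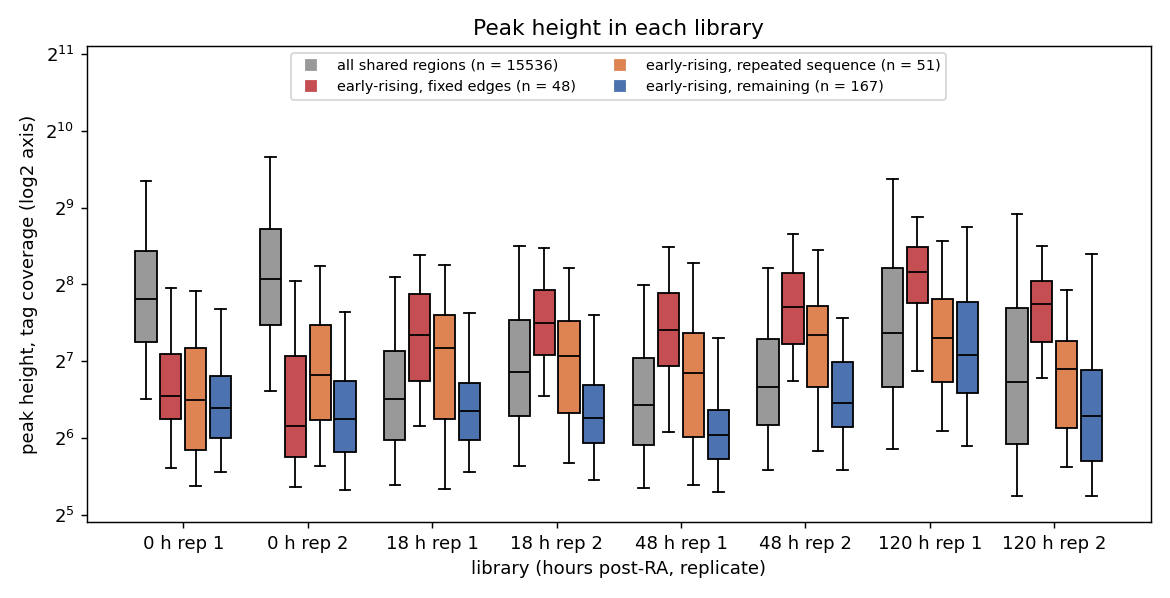
Peak height as tag coverage on a log2 axis in each of the 8 libraries, for all 15536 shared regions and the 3 kinds of early-rising region. Boxes span the quartiles with the median as a line, and whiskers reach the 5th and 95th percentiles. The grey boxes drop after 0 h while the blue boxes of the remaining early-rising regions stay near their 0 h level until 120 h replicate 1, and the red boxes of fixed-edge regions rise.

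The 3 kinds had different values on the uncentred scale. The uncentred change of a region is its centred change minus the same constant, so it is not separate from the rule. Over all shared regions, 148 (0.953%) were higher at 18 h without centring, and all of these were early-rising. Fixed-edge regions had higher values at 18 h, with median heights of 93.5 and 71.5 (0 h) and 163 and 181 (18 h), a median log2 change of 0.98, and 42 of 48 were higher at 18 h. Repeated-sequence regions had medians of 90.0 and 113 (0 h) and 145 and 134 (18 h), a median log2 change of 0.13, and 39 of 51 were higher. The remaining regions had medians of 84.0 and 76.0 (0 h) and 82.0 and 77.0 (18 h), a median log2 change of -0.05, and 67 of 167 were higher.

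The centred change spanned 1.00 to 2.88 with a median of 1.31, and fixed-edge regions supplied 19 of the 20 largest changes. In centred height, both 18 h libraries were above both 0 h libraries in 265 of the 266 regions, which the rule largely fixes. Over all 15536 shared regions this held in 3890. In 112 of the 266, every 18 h library exceeded every 0 h library by at least 1 in centred height. The lowest change inside the limit was 1.00 at chr5:105198125-105198815, followed by 1.00 in an intron of *Gpc5* (a glypican of the cell surface) and 1.00 at the start of *Eif3d* (a subunit of translation initiation factor 3). Just outside were *Trpm4* (a cation channel) and the intergenic region chr18:73533285-73533658, at 0.997 and 0.994, and *Tln2* (a talin) at 0.987. The values on either side of the limit lay close together.

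**Figure D2:**
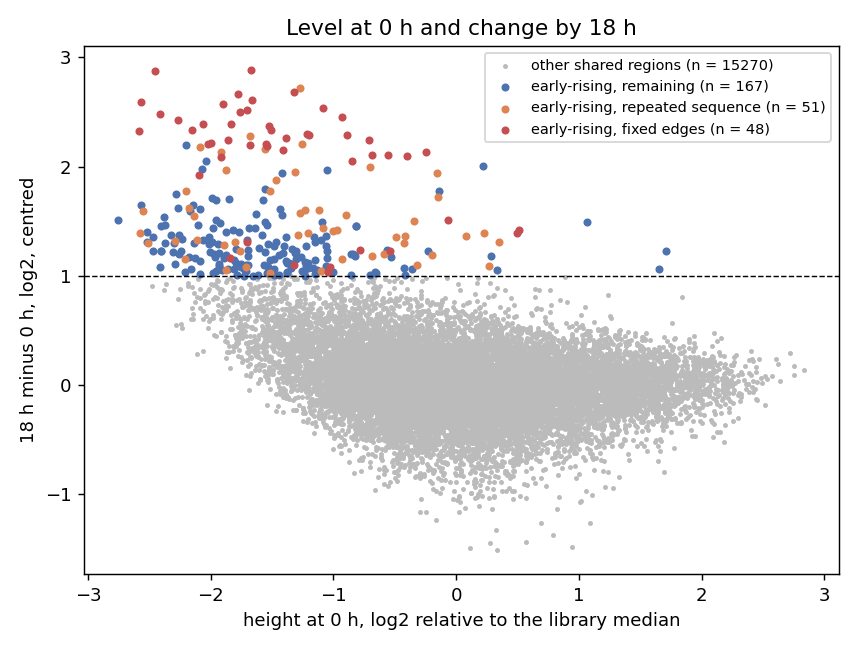
Mean centred log2 height at 0 h (horizontal) against the centred log2 change from 0 h to 18 h (vertical) for all shared regions, with the limit of 1 as a dashed line. Early-rising regions sit at the low end of the 0 h axis, and the 48 fixed-edge regions occupy most of the top.

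The fixed-edge region with the largest change, chr16:89293794-89294174, is intergenic. Its heights were 85 and 70 (0 h), 233 and 243 (18 h), 222 and 258 (48 h), and 342 and 261 (120 h). All later libraries were above both 0 h libraries. The region chr17:69282043-69282423 was named for *2410021H03Rik*, a gene model of unknown function, and lay at -5002 bp from its start. This region had heights of 134 and 72, then 283 and 246, then 250 and 302, and 338 and 292 (120 h). The region in an intron of *Exoc6b*, a subunit of the exocyst that tethers secretory vesicles, had 136 and 122, then 283 and 306, then 282 and 329, and 458 and 345. *Mapk4*, *Nbas*, *Myo5b*, *Arl1*, *Itprip* and *Ap1g1* also gave their names to fixed-edge regions among the 20 largest changes, with centred changes between 2.32 and 2.57. The peaks of 47 of the 48 regions were 379 to 381 bp wide and the other was 375 bp. Their mean signal was 0.57 of the summit value at the median, against 0.68 over all shared regions. Only 1 of the 48 touched a CpG island, 27 were intergenic and 21 intronic, and their 32-base words were unique at the median (0% occurred more than once). None of the shared regions matched the mitochondrial genome. In 33 of the 48 the edges were the same in all 8 libraries.

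A further 14 fixed-edge regions were not early-rising, although they also changed by at least 0.11 toward 18 h, and the median of all 62 was 2.14. *Fosb*, an AP-1 gene that responds at once to growth signals, was linked to a fixed-edge region at -6595 bp from its start (chr7:19316483-19316862). Its heights were 95 and 214 (0 h), 126 and 156 (18 h), 117 and 162 (48 h), and 135 and 161 (120 h). The 0 h libraries spanned all the later values, so its uncentred mean did not rise (-0.02 on the log2 scale) although its centred change was 1.23.

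Recurring sequence was common among the early-rising regions, and 49 of 266 (18.4%) had at least 20% recurring 12-base words, against 2.00% of shared regions and 5.35% of shared regions away from gene starts and CpG islands. At the end of chromosome Y, 4 of the 8 shared regions of that chromosome were early-rising, within chrY:90740998-90825760, near *Mid1*, *Erdr1*, *G530011O06Rik* and *LOC101055644*. *Mid1* encodes a ubiquitin ligase bound to microtubules. Of their sequence, 28.2% to 82.2% of 32-base words occurred more than once in the genome, and their heights ran from 36 to 731. The *G530011O06Rik* region was below both limits for repeated sequence and is counted with the remaining regions. Other groups lay at chr4:3050013-3068148 (3 regions), chr16:3231597-3236360 (3 regions), chr13:119600107-119602284 (2 regions) and chr4:156342524-156358050 (2 regions), where all but 1 of the shared regions present were early-rising. Within 50000 bp of each other, 18 early-rising regions formed 7 groups. In the groups at chr4:127168105-127188222 (2 regions) and chr5:63957569-64006934 (2 of 3 shared regions), 0.0% of 32-base words occurred more than once in the genome. Reads from sequence with several copies cannot be placed with certainty, and heights there are uncertain.

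The largest change in this kind was at chr15:74187097-74187934, an intergenic region with 67% recurring 12-base words. It had heights of 115 and 90 (0 h), 297 and 263 (18 h), 175 and 251 (48 h), and 389 and 153 (120 h). The *Dlgap2* region had 82 and 129, then 195 and 201, then 145 and 200, and 183 and 208 (120 h). In both, the 18 h libraries were above the 0 h libraries before any centring.

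Gene starts made up a small part of the early-rising regions. Of the 266, 16 (6.02%) lay within 1000 bp of a gene start, against 57.7% of shared regions, and 16 (6.02%) touched a CpG island, against 58.6%. The GC content had a median of 48.6%, against 58.6%, and the observed-to-expected ratio of CpG was 0.17, against 0.65. Most were intergenic (140, 52.6%) or intronic (118, 44.4%) in the GENCODE basic annotation, with 8 in exons, and 101 were given no gene by the authors' table. Shared regions that fell by 1 or more at 18 h numbered 36 and had a similar GC content (49.1%), with 16.7% within 1000 bp of a gene start and 8.33% on a CpG island.

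*Stra8* and *Kit* ranked 2 and 4 by centred change among the 8971 shared regions at gene starts, and 95 and 115 among all shared regions. The *Stra8* region (chr6:34920631-34921059) had heights of 123 and 159 (0 h), 133 and 192 (18 h), 165 and 168 (48 h), and 202 and 182 (120 h). The groups of 0 h and 18 h overlapped in height, while both 48 h and both 120 h libraries were above both 0 h libraries. The *Kit* region (chr5:75574591-75575349), which covers a CpG island, had 96 and 144, then 107 and 150, then 127 and 142, and 250 and 159 (120 h). Its heights overlapped between 0 h, 18 h and 48 h. The centred changes of 1.45 and 1.37 therefore record that these 2 starts kept their height while the library medians fell by more than 1 on the log2 scale. From 48 h to 120 h neither changed beyond the spread (*Stra8* -0.30 ± 0.22, SE, adjusted p = 0.333, and *Kit* 0.07 ± 0.20, SE, adjusted p = 0.827, limma with Benjamini-Hochberg adjustment over 15536 regions).

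The largest change at a gene start was that of *Slc39a11*, a zinc transporter (chr11:113565184-113566015, at -41 bp from the start). Its heights were 212 and 234 (0 h), 298 and 343 (18 h), 355 and 353 (48 h), and 455 and 346 (120 h). All later libraries were above both 0 h libraries without centring, and the peaks of 3 libraries shared the same edges 381 bp apart. *LOC101055644*, on repeated sequence of chromosome Y, ranked 3. The other starts included those of *Eif4e2* (a cap-binding protein), *Eif3d*, *Sar1b* (a GTPase of vesicle budding), *Cep76* (a centrosomal protein), *Rab11fip4* (a partner of RAB11), *Asmt* (the last enzyme of melatonin synthesis) and *Actl11* (an actin-like protein of the testis), with centred changes of 1.00 to 1.16. These starts were named after their values had been seen.

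**Figure D3:**
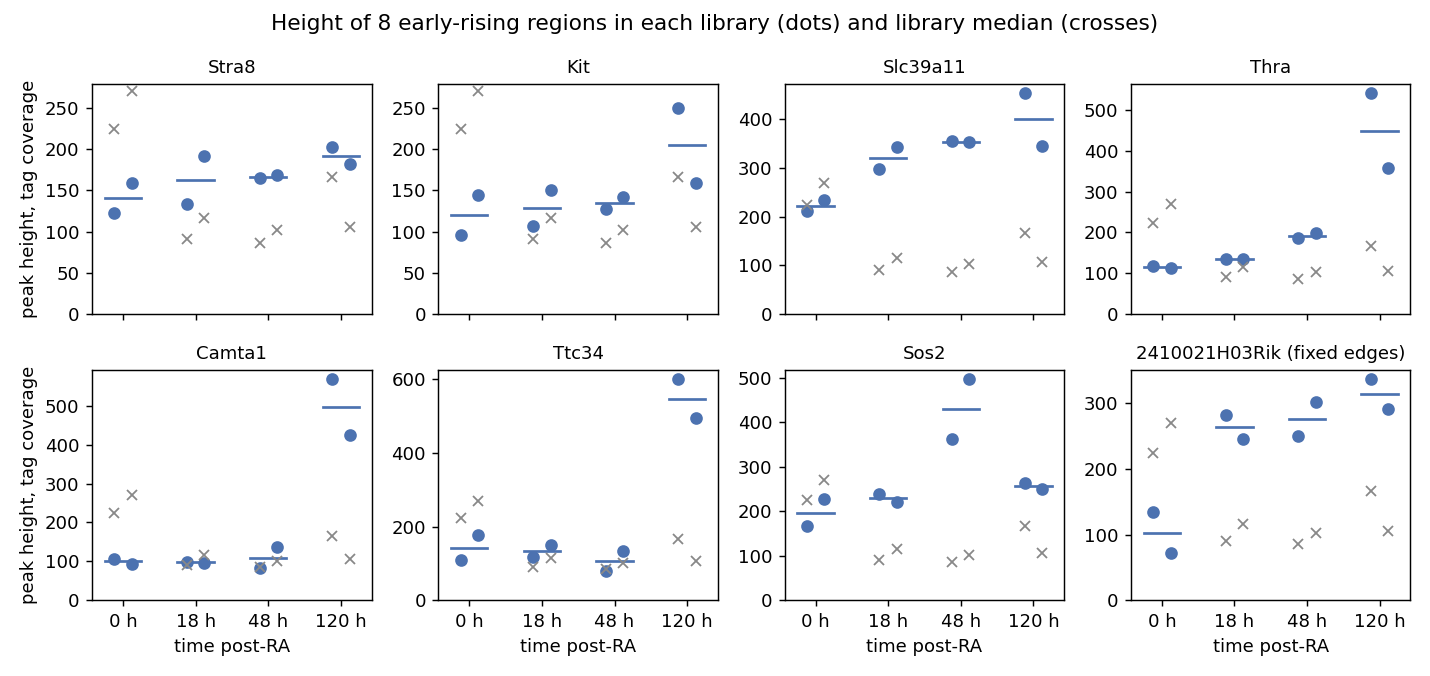
Height as tag coverage in each library (dots, with the mean of 2 libraries as a line) for 8 early-rising regions, and the median height of all shared regions in the same library (crosses). In *Stra8* and *Kit* the dots stay level from 0 h to 48 h while the crosses fall, in *Thra*, *Camta1* and *Ttc34* they rise at 120 h, and in *2410021H03Rik* and *Slc39a11* they rise by 18 h.

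Early-rising regions made up 1.71% of all shared regions, and lists of 19 to 36 shared regions are too short to tell a share of 0 or 1 member from that background. Of 22 RA response genes, 13 had shared regions, 19 in all, and only that of *Stra8* was early-rising. The median centred change of the 19 was 0.16, against 0.03 over all shared regions. Of 21 shared regions at 15 of 18 differentiating spermatogonia genes, 2 were early-rising (*Stra8* and *Kit*), and their median change was 0.25. Of 30 regions at 20 of 30 undifferentiated spermatogonia genes, 0 were early-rising, with a median of -0.15, and of 27 regions at 15 germ cell identity genes, 0, with a median of -0.03. *Fosb* was the only early-rising region among 29 regions of AP-1 and immediate early genes. The 36 regions of chromatin and DNA methylation genes and the 25 of glycolysis and stress genes held none.

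Markers of other testis cells had few shared regions, with 4 for Sertoli cells, 4 for peritubular and endothelial cells, 1 for macrophages and blood and 0 for Leydig cells, so at a background of 1.71% they say little about the early-rising regions. Peaks within 1000 bp of the start were found for 9 or 10 of 10 germ cell markers in every library. Of 10 Sertoli cell markers, 7 and 6 had such a peak at 0 h and 2 to 4 later, of 9 peritubular and endothelial markers 6 and 6 (0 h) and 2 to 5 later, of 7 Leydig cell markers 0 or 1, and of 8 macrophage and blood markers 0 to 2. *Rhox5*, *Fshr* and *Amhr2* of Sertoli cells, *Cyp17a1* and *Insl3* of Leydig cells and *Ptprc* and *Adgre1* of macrophages were among those with none in any library. In contrast, 1 Sertoli cell marker and 2 peritubular and endothelial markers had such a peak in all 8 libraries. The fall in these counts after 0 h was not compared with that over all gene starts. None of these markers was linked to an early-rising region, and the part of other cells in the heights was not tested.

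One short sequence, the DMRT core, was found in more of the remaining early-rising regions than of comparable shared regions. DMRT1 is a transcription factor of the gonad that holds spermatogonia back from meiosis. It and its relatives bind sites with the core TACATTGT, and a match does not tell them apart. The remaining early-rising regions shown are 6 with large changes that held this core, in either orientation, around the match nearest the summit, with the match in capitals, on the plus strand of GRCm38.
chr9:48539801-48539888: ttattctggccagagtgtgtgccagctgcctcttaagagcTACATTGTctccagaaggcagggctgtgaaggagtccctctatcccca
chr7:16900251-16900338 (Ptgir): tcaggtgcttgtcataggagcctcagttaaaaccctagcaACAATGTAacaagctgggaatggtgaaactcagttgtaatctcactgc
chr5:136932962-136933049 (4933404O12Rik): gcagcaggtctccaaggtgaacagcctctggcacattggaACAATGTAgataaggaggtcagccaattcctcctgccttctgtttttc
chr11:98743883-98743970 (Thra): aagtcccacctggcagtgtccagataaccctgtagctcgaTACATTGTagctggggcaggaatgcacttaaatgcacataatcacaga
chr16:33283209-33283296 (Snx4): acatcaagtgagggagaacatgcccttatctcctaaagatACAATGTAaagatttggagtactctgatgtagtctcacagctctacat
chr10:93696317-93696404 (Ntn4): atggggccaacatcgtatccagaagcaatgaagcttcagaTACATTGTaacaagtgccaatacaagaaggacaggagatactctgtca
Their matches lay 12 to 115 bases from the median summit, and those in *Thra*, *Snx4* and *Ntn4* within 24 bases. Over the 32 remaining early-rising regions with a match, the median distance to the summit was 25.5 bases, against 29.0 bases in 668 other shared regions without fixed edges or repeated sequence.

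Among regions away from gene starts and CpG islands, without fixed edges or repeated sequence, the DMRT core lay in the 300-base window of 32 of 150 early-rising regions (21.3%) and of 12.9% of 4897 others. Over all shared regions the share was 4.72%. The share rose with the centred change, from 3.85% of 26 regions that fell by 1 or more, through 7.30% of 356 and 11.1% of 2130 with smaller falls, to 14.4% of 1848 and 19.2% of 537 with smaller rises. The GC content of the windows was nearly level over these steps, with medians of 48.8% to 50.7%. These shares are a description of letters, without a test, and the core was one of 23 searched.

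Other motifs were rarer than in comparable regions or alike. The GC box was found in 5.33% of the 150 regions and 18.0% of the 4897, the CCAAT box CCAATCA in 2.67% and 10.5%, and the ETS core CCGGAAG in 1.33% and 4.68%. The nuclear receptor motif was found in 13.3% and 16.5%, the SOX core ACAAAG in 32% and 35.7%, the AP-1 site TGANTCA in 9.33% and 9.07%, and the GATA core AGATAA in 9.33% and 10.2%. Paired nuclear receptor motifs with a spacer of 1, 2 or 5 bases (DR1, DR2 and DR5) were each found in under 1% of either group. All matches were counted on both strands, and a region could hold several motifs.

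**Figure D4:**
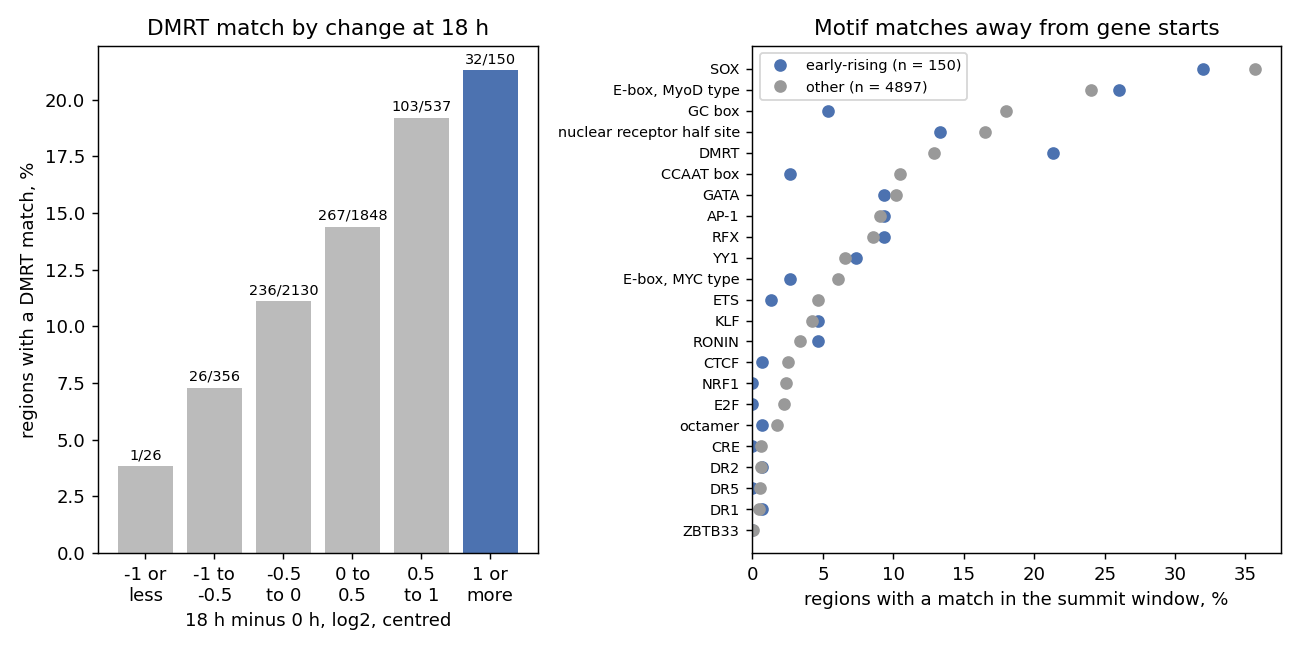
Left, the percentage of shared regions away from gene starts and CpG islands, without fixed edges or repeated sequence, that held the DMRT core, by centred log2 change from 0 h to 18 h, with counts above the bars. Right, dots give the percentage with each of the 23 motifs in the 150 early-rising regions (blue) and 4897 others (grey) of that kind. The bars climb from 3.85% to 21.3%, and DMRT is the motif with the largest excess in early-rising regions.

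In centred height, most early-rising regions were still above their 0 h level at 48 h and 120 h. The values at 48 h and 120 h are compared with the same 0 h libraries that chose the regions and are a description. The median centred height was -1.37 and -1.77 in the 0 h libraries, 0.07 and -0.30 (18 h), -0.16 and 0.20 (48 h), and -0.07 and -0.16 (120 h). The centred gain over 0 h was still 1 or more in 227 regions (85.3%) at 48 h and in 174 (65.4%) at 120 h, against 2.6% and 5.75% of all shared regions. In 236 (88.7%) all 6 later libraries were above both 0 h libraries, against 12.4% of all shared regions. Because the regions were chosen for low 0 h and high 18 h values, these shares are not independent of the choice. By kind, the centred gain at 120 h was 1 or more in 43 of 48 fixed-edge, 33 of 51 repeated-sequence and 98 of 167 remaining regions. Without centring, the mean was above that of 0 h in 154 of the 266 (57.9%) at 48 h and 195 (73.3%) at 120 h. Over all shared regions these shares were 1.09% and 8.61%. Of the 167 remaining regions, 76 (45.5%) were above 0 h at 48 h and 115 (68.9%) at 120 h without centring.

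The comparison of 120 h with 48 h used no library of the rule and could be tested. With limma on centred heights, 11 of the 266 regions were higher at 120 h and 21 were lower at an adjusted p under 0.05 (Benjamini-Hochberg over 15536 regions). These are 4.14% and 7.89% of the early-rising regions, beside 9.47% higher and 7.45% lower over all shared regions. Among all 5417 shared regions away from gene starts and CpG islands, where most early-rising regions lie, 4.01% were higher and 13.3% lower, and the differences between these shares were not tested. All 11 rises and 14 of the falls were among the 167 remaining regions, and the other 7 falls (13.7%) were in repeated-sequence regions. Of all 389 shared regions with repeated sequence, 3.6% were higher and 19.5% lower. None of the 48 fixed-edge regions passed (3 had an unadjusted p under 0.05 in limma), and neither did any of all 62 shared regions with fixed edges. Without centring the counts were 37 higher and 0 lower, and after removal of a GC trend 27 higher and 16 lower, so the balance of rises and falls depended on the scaling. Without 48 h replicate 2 no region passed, and without 48 h replicate 1 there were 2 rises and 2 falls.

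Among the rises past the threshold, the largest lay in *Ttc34* and *Camta1*. *Ttc34* encodes a protein with tetratricopeptide repeats, and its intronic region began at chr4:154857160. The authors' table gave this region a distance of 1208 bp from the gene start. Its heights were 109 and 177 (0 h), 117 and 149 (18 h), 79 and 135 (48 h), and 600 and 494 (120 h). Both 120 h libraries stood far above the other 6, and the centred change from 48 h was 1.90 ± 0.24 (SE, adjusted p = 0.00552, limma). *Camta1* encodes a calmodulin-binding transcription activator, and the region began at chr4:151445109. Its heights were 107 and 93, then 99 and 96, then 82 and 137, and 568 and 425 (120 h). The change from 48 h was 1.71 ± 0.25 (SE, adjusted p = 0.00592, limma). A second early-rising region of *Camta1*, at chr4:151588413, had heights of 86 and 47 (120 h) and did not pass (adjusted p = 0.958, limma).

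The next largest of these rises were in the intergenic regions chr14:70829678-70830349 (1.25 ± 0.32, SE, adjusted p = 0.0271, limma) and chr12:105937951-105938465 (1.22 ± 0.29, SE, adjusted p = 0.0235, limma), and at -2863 bp from the start of *1700010L04Rik* (1.17 ± 0.30, SE, adjusted p = 0.0284, limma). At chr12:105937951-105938465 the heights were 70 and 73 (0 h), 69 and 52 (18 h), 50 and 108 (48 h), and 321 and 182 (120 h). In all 11 regions that rose, both 120 h libraries were above both 48 h libraries also without centring. The same libraries picked the 11, and centred heights did not overlap in any of the 32 regions past the threshold. The count is therefore not a separate result. Over all shared regions, the uncentred mean was higher at 120 h than at 48 h in 83.6%, and overlap was not counted there.

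Regions in *Thra*, *Msi2* and *Cyba* rose as well and were named after their values had been seen. *Thra* encodes the thyroid hormone receptor alpha, a nuclear receptor that pairs with RXR, and its region began at chr11:98743647. The authors' table gave this region a distance of 1999 bp from the gene start. It had heights of 117 and 114 (0 h), 136 and 136 (18 h), 186 and 198 (48 h), and 542 and 357 (120 h), so that no 2 timepoints overlapped. It is the region with the DMRT core 22 bases from its summit shown above, and its change from 48 h was 0.69 ± 0.21 (SE, adjusted p = 0.0416, limma). *Msi2*, an RNA-binding protein of germ and stem cells, had 114 and 109, then 103 and 89, then 90 and 109, and 326 and 193 (120 h). *Cyba*, a subunit of NADPH oxidase, had 132 and 105, then 109 and 101, then 124 and 122, and 404 and 313 (120 h). In *Msi2* and *Cyba* both 120 h libraries were above the other 6 without centring.

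Among the falls past the threshold, the largest were at chr13:94611238-94611706 (-1.30 ± 0.36, SE, adjusted p = 0.0316, limma), chr5:105198125-105198815 (-1.25 ± 0.32, SE, adjusted p = 0.0256, limma), chr7:3125389-3125906 (-1.23 ± 0.34, SE, adjusted p = 0.0325, limma), an intron of *Sos2* (-1.23 ± 0.24, SE, adjusted p = 0.0153, limma) and chr4:114632550-114633027 (-1.13 ± 0.36, SE, adjusted p = 0.0488, limma). *Sos2* encodes an exchange factor that loads RAS with GTP, and its region, of repeated sequence, had heights of 166 and 227 (0 h), 238 and 221 (18 h), 362 and 497 (48 h), and 263 and 249 (120 h). It was highest at 48 h in both libraries. The chr5 region had 100 and 55, then 64 and 60, then 66 and 81, and 65 and 29 (120 h). Heights of 120 h and 48 h did not overlap without centring in 6 of the 21 regions that fell, and in the others the groups overlapped. This count stands beside the 83.6% of all shared regions whose uncentred mean was higher at 120 h than at 48 h. The same libraries picked the 21, and overlap was not counted over all shared regions, so the count is a description only. The 120 h minus 48 h change was below 0 without centring too in these regions, although none of the 21 then passed the threshold, and at chr13:94611238-94611706 it was -0.80.

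**Figure D5:**
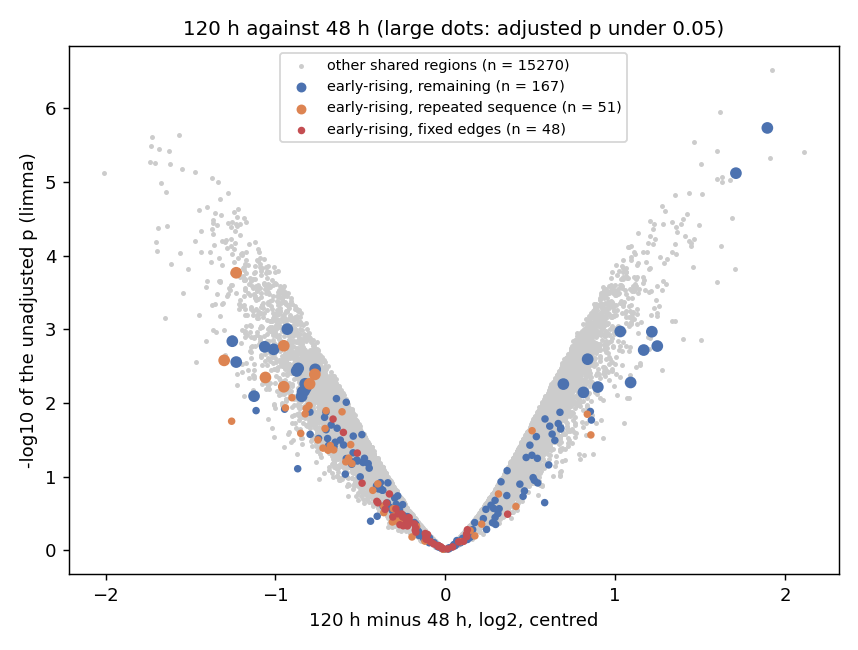
Centred log2 change from 48 h to 120 h (horizontal) against -log10 of the unadjusted p of limma (vertical) for all shared regions, with early-rising regions coloured by kind and those past an adjusted p of 0.05 as large dots. The 11 rises on the right are all in the remaining regions, with *Ttc34* and *Camta1* uppermost. None of the 48 fixed-edge regions has a large dot, and none of all 62 shared regions with fixed edges passed.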

How the data were processed

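ATAC-seq peaks of 8 libraries were analysed (2 for each of 0 h, 18 h, 48 h and 120 h). According to the submitters' processing notes the authors used BWA 0.7.12, SAMtools 0.0.19, bedtools 2.25.0 and MACS2 2.1.0 on mm10. The methods and supplementary metrics of the study state that duplicates and mitochondrial tags were removed, tag numbers made equal, tags extended to 200 bp and signal taken in 32-nt bins. The deposited table of 328733 peaks gives, per library, the signal (coverage) at the summit and the mean signal, with gene assignments by the authors. No read counts were used, so the depth behind a peak is unknown. The deposited track list was not used.

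Heights were compared with limma 3.58.1 (R 4.3.3; 4 groups, no block), tested on simulated data. There, 120 h minus 48 h changes of 1 on the log2 scale were called in 80 of 200 changed regions (40%). Changes of 1.5 were called in 152 of 200 (76%), so a region that did not pass may still have changed. Because 2 mice per group give the spread, p-values rest on few libraries. Named regions were the 20 largest changes, those at listed genes, up to 5 rises and 5 falls past the threshold, and 3 on each side of the limit. Others are said to be chosen after their values were seen. The early-rising regions, gene lists and motifs were chosen with earlier results of these data known, and the limits for fixed edges and repeated sequence were set after seeing the data. Words and motifs were counted in GRCm38 with Python 3.11.15.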

Additional observations from a re-analysis of the deposited data

How the results depend on the processing

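The number of early-rising regions was 266, and 179 after quantile normalization, 251 after removal of a GC trend and 249 with exactly 1 peak in each library. It was 156 on the mean signal over the peak, 25 without centring, 166 with a summit value of at least 50 in each library and 167 without fixed edges and repeated sequence, an alternative chosen after seeing the data. Leaving out 1 library gave 200 to 415 regions, with 415 both without 0 h replicate 1 and without 18 h replicate 2. From 48 h to 120 h, 11 regions rose and 21 fell. The counts were 37 and 0 without centring, 3 and 4 after quantile normalization, and 27 and 16 after removal of a GC trend. Falls numbered 33 with only the 48 h and 120 h libraries and 37 with an intensity trend. Leaving out 1 library gave 0 to 14 rises and 0 to 25 falls. Rises and falls numbered 0 and 0 without 48 h replicate 2, 2 and 2 without 48 h replicate 1, 3 and 7 without 120 h replicate 2, and 4 and 15 without 120 h replicate 1. The cause was not tested. All 32 kept their direction under every alternative.

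With a replicate block the counts were 13 rises and 24 falls, and with a replicate block and GC trend removal 28 and 17. Replicate numbers mark different mice, and correlations of deviations between equal numbers ran from -0.22 to 0.25. The 120 h minus 48 h change of *Kit* (0.07) became -0.11 on the mean signal, -0.14 after quantile normalization and -0.16 after GC trend removal, with or without a block. Without centring that of *Stra8* became 0.20 and that of *Fosb* (-0.40) became 0.10, and leaving out 1 library gave *Fosb* -0.854 to 0.0472, the latter without 120 h replicate 1. None of the 3 passed the threshold with all libraries. The share at gene starts (6.02%) and on CpG islands (6.02%) stayed between 4.02% and 7.05% under the 5 alternatives that chose the regions anew.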
